A study of Saccharomyces cerevisiae with 7 samples.

Results

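The mRNA levels of budding yeast (*Saccharomyces cerevisiae*) in 2 mRNA-seq samples labelled puf3Δ were taken from every row of 1 deposited table. It gives 1 pooled value per gene, in RPKM (reads scaled to gene length and library size), for 6550 of 6550 rows. Of these, 5893 matched the RefSeq gene table by locus tag and 5880 of them were protein-coding. The strain was labelled as BY4742 with PUF3 replaced by a KAN marker, and it was grown at 30 °C in synthetic defined medium to mid-log phase. The labels mention 200 µM 4-thiouracil only where indicated, and they describe ultraviolet irradiation in one protocol and its absence in another, so neither can be stated for these 2 samples. RNA came from extract depleted of ribosomes on sucrose gradients and was then enriched for polyA. All levels below are those of this RNA, and how they compare with levels in whole cells was not tested. The same series holds binding sites of Puf1, Puf2, Puf4, Puf5 and Puf6, from 1 CLIP (crosslinking and immunoprecipitation) library each, in MATa strains with the alleles his3Δ1, leu2Δ0, met15Δ0 and ura3Δ0, in which the gene of the protein carries a TAP tag and HIS5. Those strains were grown in 4-thiouracil and irradiated, per the labels. No wild-type mRNA-seq was analysed here, so no level below can be read as an effect of losing PUF3, and with 1 value per gene there is no spread between replicates and no test.

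As background, Pumilio (Puf) proteins bind short sequence elements, mostly in the 3' untranslated regions (3' UTRs) of mRNAs, and in yeast they mainly lower the stability or translation of their targets. Puf3 is best known for binding mRNAs of nuclear genes for mitochondrial proteins, above all those of the mitochondrial ribosome. A yeast cell growing on glucose ferments it, and mRNAs for glycolysis and ribosomal proteins are among its most abundant. Haploid cells of mating type a and alpha transcribe different small sets of genes, which makes these genes a test of strain identity.

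Levels spanned the whole range from 0 to 24821 RPKM, with a median of 48.3 and quartiles of 16.4 and 110. Between 10 and 100 RPKM lay 3422 rows, 52.2% of all. Between 100 and 1000 lay another 1594, and 186 rows, 2.84%, reached 1000 or more. Total level was concentrated in few genes. The highest 10 rows held 9.64% of the summed RPKM, the highest 100 held 32.7%, and 277 rows were enough for 50% of it. At the other end, 789 rows were under 1 RPKM, 12% of the 6550, and 415 of these were listed at 0. The 657 rows without a RefSeq match were mostly low, with a median of 0.224 and 270 listed at 0, while the protein-coding rows had a median of 56.0 and 142 listed at 0.

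**Figure D1:**
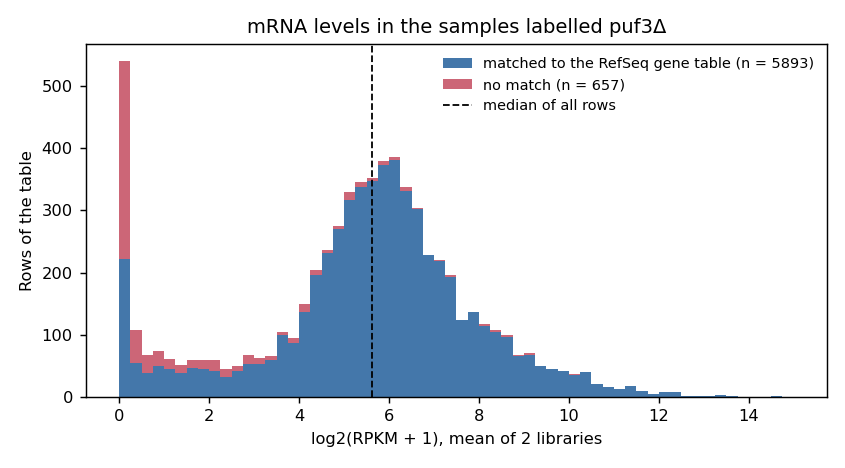
Number of rows (vertical axis) by log2(RPKM + 1) of the pooled column (horizontal axis), stacked for the 5893 rows matched to RefSeq genes and the 657 unmatched rows, with the median of all rows dashed. Most matched genes form 1 broad hump around the median of 48.3 RPKM, and the bar at 0 is made up of matched and unmatched rows.

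The decimals of the column showed how it was made and by which read numbers the libraries were divided. In all 2981 rows with 5 decimals the last digit was 5, the pattern of a mean of 2 values rounded to 4 decimals. Among 190 genes under 0.5 RPM (reads scaled to library size), RPKM times gene length fell on whole reads of 2 libraries in 167 (87.9%), with 1.06e+07 and 9.73e+06 reads as their divisors. The library with the larger divisor is called the deeper one, and which replicate it was is unknown. Over these low genes 311 reads fell in the deeper library and 318 in the other, a share of 49.4% (exact binomial 95% interval 45.5 to 53.4) against 52.2% from the divisors alone. Both libraries thus contributed reads at the low end in close to equal numbers, and 43 genes rested on a single read. For higher genes, the number of reads is given below as a range, since the split between libraries is not known. These intervals and ranges cover counting error only.

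PUF3 itself went against the label. It stood at 23.6 RPKM, rank 4537 of the 6550 rows, from 1213 to 1322 reads over its coding region (chromosome XII, 122075 to 124714, sacCer3). That is at the level of MPT5, which encodes Puf5, at 24.8 RPKM, and above PUF2 at 11.5. The neighbouring genes EMC6 and YEH1 stood at 125 and 18.9 RPKM. If all PUF3 reads came from 1 of the 2 libraries, its level there would be 47.2 RPKM, so at least 1 library labelled puf3Δ held PUF3 at 23.6 RPKM or more. The remaining family members were higher, with JSN1 (encoding Puf1) at 40.2, NOP9, a nucleolar Puf-like protein needed for small ribosomal subunit assembly, at 80.5, PUF4 at 83.3 and PUF6, a repressor of ASH1 mRNA that also acts in ribosome assembly, at 101. The samples are therefore called "labelled puf3Δ" throughout. Where within the gene the PUF3 reads lie is not shown by 1 value per gene.

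Other marker genes gave a mixed picture of BY4742, a MATα strain that by its known genotype lacks working HIS3, LEU2, LYS2 and URA3. LYS2, the aminoadipate reductase of lysine synthesis, was listed at 0 between RAD16 at 52.2 and TKL2 at 32.5 RPKM and BY4742 is known to lack the whole gene. HIS3 stood at 132 RPKM from 1698 to 1852 reads. The his3Δ1 allele is known to remove only an inner stretch of that gene. MET17, the sulfhydrylase of methionine synthesis, which BY4742 retains, stood at 243. The CLIP strains are labelled met15Δ0, an allele of the same gene, and the Puf6 list nevertheless held a coding site of MET17 at 50.7 RPM. URA3 and LEU2 are not analysed here. LYS1, the last enzyme of lysine synthesis, was at 1.31 RPKM from 29 to 31 reads, although its neighbours MGA2 and NRE1 stood at 96.6 and 147 and LYS9, the step before it, at 105. The labels name no lys1 allele. Among 11 marker genes that BY4742 is not known to lack, all but the arginine permease gene CAN1 biosynthetic, LYS1 was the only one under 10 RPKM, and the median was 220.

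The mating-type genes matched an alpha strain. All 5 alpha-specific genes were above all 7 a-specific genes, with the lowest of the former 5.97-fold over the highest of the latter. MF(ALPHA)1, the main alpha-factor precursor, stood at 1323 RPKM, SAG1, the alpha-agglutinin of the cell surface, at 736 and STE3, the receptor for a-factor, at 261. MF(ALPHA)2, the second alpha-factor gene, was at 196 and AFB1, which encodes a secreted protein that binds a-factor, at 33.5. The a-specific genes were all below the median of 48.3. STE2, the alpha-factor receptor, had 5.61 RPKM from 142 to 154 reads, and STE6, the exporter of a-factor, had 5.56 from 419 to 457 reads. BAR1, the protease that degrades alpha-factor, stood at 2.48, and AGA2, the binding subunit of a-agglutinin, at 1.48 from 5 and 3 reads in the 2 libraries. The a-factor genes MFA1 and MFA2 were at 1.35 and 1.11, and MFA1 rested on 1 and 2 reads. ASG7 had 0.231 RPKM from 2 and 1 reads. Summed over each list, the alpha-specific level was 143 times the a-specific level.

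Genes transcribed in haploids of either type were all present. The 12 members had a median of 116 RPKM, and none was under 31.3, the level of the scaffold STE5. GPA1, STE4 and STE18, the alpha, beta and gamma subunits of the G protein that relays the pheromone signal, stood at 294, 187 and 66.0. The kinase FUS3 was at 105, the cell cycle inhibitor FAR1 at 144 and the transcription factor STE12 at 127. RME1, a repressor of meiosis, was at 163 and AMN1, which acts in mitotic exit and daughter cell separation, at 336. The endonuclease gene HO stood at 94.4, NEJ1, needed for end joining of DNA breaks, at 44.2 and AXL1, a protease that processes a-factor, at 39.3. The 16 genes that pheromone is known to induce had a lower median of 29.2, from PRM3 at 1.35 to SST2, which turns the signal down, at 166.

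**Figure D2:**
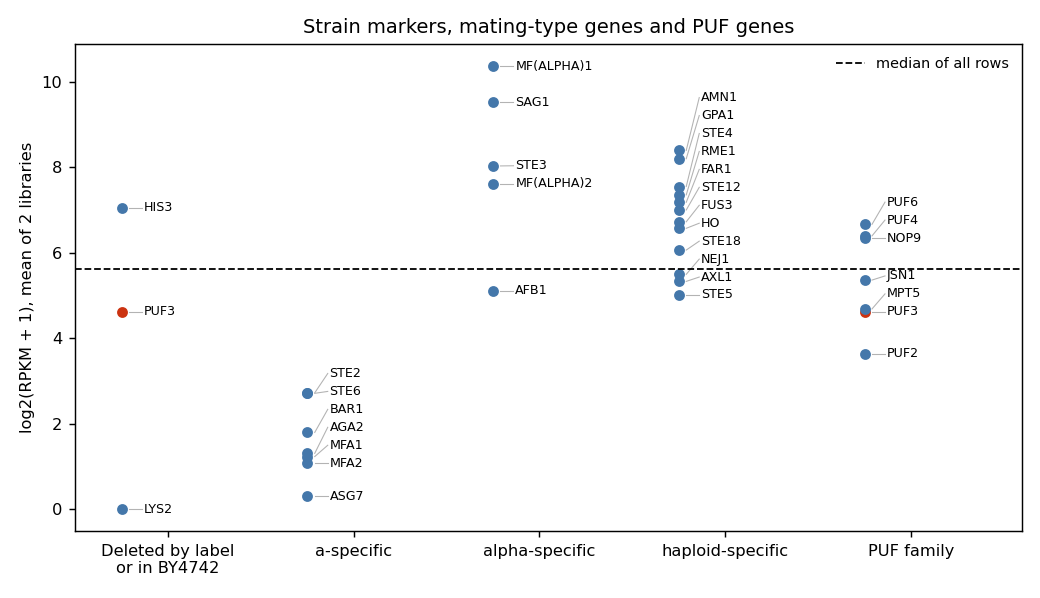
Level as log2(RPKM + 1) of the pooled column (vertical axis) for genes deleted by the label or in BY4742, a-specific, alpha-specific and haploid-specific genes and the PUF family (horizontal axis), 1 point per gene, with the median of all rows dashed and PUF3 in red. PUF3 lies beside MPT5 at 23.6 and 24.8 RPKM, LYS2 is listed at 0, and every alpha-specific point lies above every a-specific point.

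The most abundant mRNAs in the sequenced RNA were those of sugar breakdown, the ribosome and the cell surface. TDH3, a glyceraldehyde-3-phosphate dehydrogenase, was highest at 24821 RPKM and alone held 2.38% of the summed RPKM. CCW12, a mannoprotein of the cell wall, followed at 12775. Next came FBA1 (aldolase) at 10020, ENO2 (enolase) at 9899, CDC19 (pyruvate kinase) at 9761, PDC1 (pyruvate decarboxylase) at 8803 and TPI1 (triosephosphate isomerase) at 6939. PGK1 and GPM1, the kinase and mutase for phosphoglycerate, stood at 5285 and 5018. Of the 20 highest genes, 8 thus served glycolysis and fermentation. Another 7 encoded ribosomal proteins, namely RPS12 at 6531, RPS31, made as a fusion to ubiquitin, at 5658, RPL41B at 5212, RPL41A at 4977, RPP2B at 4813, RPL3 at 4604 and RPL10 at 4578. The others were HSP12, a small membrane-associated stress protein, at 5386, PMA1, the proton pump of the plasma membrane, at 5265, HOR7 at 5220 and AHP1, a thiol peroxidase, at 4766.

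The gene lists give the levels by function. Glycolysis and fermentation had the highest median of the 45 lists, 1356 RPKM over 25 genes, 28.1 times the median of all rows, and it held 9.38% of the summed RPKM. Its members still ranged from TDH3 down to ADH2 at 2.72 and PDC6 at 1.69. The 57 genes of the small cytosolic ribosomal subunit had a median of 1190 and the 81 of the large subunit 978, with 8.88% and 10.8% of the sum. By the deposited RPKM, all 57 and 80 of 81 were above the median of all rows, and RPL36A at 44.0 was the exception. The 8 genes for the core histones H2A, H2B, H3 and H4 ranged from HHT2 at 975 to HTA1 at 1446, while the variant HTZ1 was at 239 and the linker histone HHO1 at 156. Elongation and termination factors had a median of 634, led by YEF3, a fungus-specific elongation factor, at 2628, EFB1 at 2553 and TEF1 at 2145. Initiation factors had a median of 358 and a narrower range, from the cap-binding protein CDC33 at 843 to TIF4632 at 98.2.

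Genes for building blocks and for mitochondria were mostly above the middle of the distribution. Fatty acid synthesis had a median of 465, with ACB1, the acyl-CoA binding protein, at 1463 and the fatty acid synthase subunits FAS2 and FAS1 at 1304 and 1094. Amino acid synthesis had a median of 296, led by ILV5 of branched-chain synthesis at 2191, GDH1, the main ammonium-fixing dehydrogenase, at 1368 and ASN1 at 1353. Nuclear genes of the respiratory chain and ATP synthase had a median of 447 over 34 genes, and 33 were above the median of all rows. ATP2 and ATP1 of the synthase led at 1920 and 1181, and CYC7, the cytochrome c isoform known for low oxygen, was lowest at 23.9. The citric acid cycle had a median of 287 and mitochondrial import 278. The 73 genes of the mitochondrial ribosome, the best known class of Puf3 targets, had a median of 118 and a narrow range, from RSM22 at 47.7 to MRPS9 at 400. Of these 71 were above the median of all rows and none reached 1000. Without a wild type, these levels show nothing about a response to PUF3.

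Regulators were near the middle of the distribution. The 56 DNA-binding transcription factors had a median of 61.4, with 35 above and 21 below the median of all rows. GCN4, the activator of amino acid synthesis, stood out at 2039 RPKM, since the next, YAP1 and PHO4, were at 162 and 151. Cyclins had a median of 67.3, from PCL5 at 278 and the G1 cyclin CLN2 at 189 to the S-phase cyclin CLB6 at 12.8. Silencing factors had a median of 41.0. The 34 proteasome genes lay much higher, at a median of 300, and all but 2 were above the median of all rows.

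**Figure D3:**
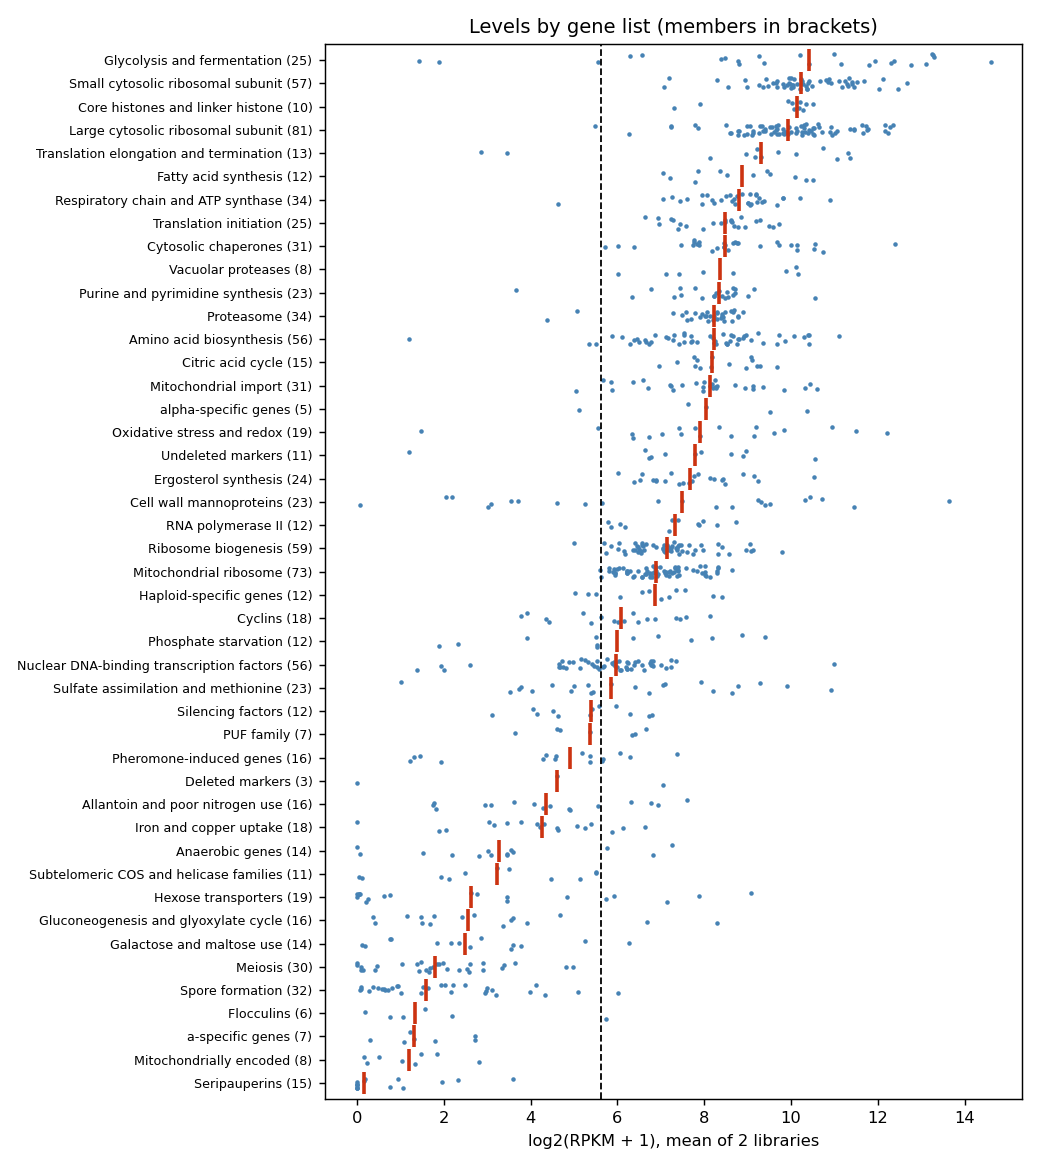
Level as log2(RPKM + 1) (horizontal axis) of each member (blue points, scattered vertically for display) of 45 gene lists (vertical axis, with the number of members), ordered by list median (red bars), with the median of all rows dashed. Lists run from glycolysis, with a median of 1356 RPKM, to the seripauperins, with a median of 0.130.

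The low lists were those of meiosis, spore formation, carbon sources other than glucose and some cell surface families. Meiosis genes had a median of 2.50 over 30 members. Of these 7 were under 1 RPKM, 23.3% against 12% of all rows and 6.11% of protein-coding rows, and none reached the median of all rows. CST9 at 30.4 and REC107 at 27.2, both of meiotic chromosome pairing or recombination, were the highest. Spore formation genes had a median of 2.00 over 32 members, 13 of them under 1 RPKM, from the chitin deacetylase CDA2 at 0.0548 to SPR6 at 64.1. Genes of galactose and maltose use had a median of 4.61, with the repressor GAL80 at 76.1 and the maltase MAL12 at 0.0879. The 19 hexose transporters and sensors were split. HXT3, HXT1 and HXT7 stood at 536, 233 and 141, whereas 9 members were under 1 RPKM and HXT14 and HXT16 were listed at 0.

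The seripauperins and flocculins had lower medians than the meiosis and spore lists, unlike the cell wall mannoproteins, whose median was 180. The 15 seripauperins, small cell wall proteins encoded mostly near chromosome ends and known to be made in low oxygen, had a median of 0.130, the lowest of the 45 lists. Of these, 11 were under 1 RPKM, 73.3%, and 7 were listed at 0. PAU23 was highest at 11.04, followed by PAU17 at 4.04 and PAU7 at 2.91. The flocculin list, 5 adhesins of cell clumping and their activator FLO8, had a median of 1.54. The adhesin genes FLO1, FLO5, FLO9, FLO10 and FLO11 were between 0.137 and 3.55, and FLO8, a transcription factor, was at 52.0. Seripauperins and flocculins are families of similar sequence, and how reads that match several copies were counted is not given in the sources used here.

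Mitochondrial DNA gave almost no reads. Its 24 rows ranged up to 6.05 RPKM, at OLI1, a subunit of ATP synthase, and 5 were listed at 0. The 8 main protein genes, of the respiratory chain and ATP synthase except VAR1 of the mitochondrial ribosome, had a median of 1.29. The nuclear genes of the respiratory chain and ATP synthase had 447. Yeast mitochondrial mRNAs carry no polyA tail, and these libraries were enriched for polyA, so these values are not comparable with those of nuclear genes.

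A value of 0 in this table cannot by itself be read as silence. Among the 142 protein-coding genes listed at 0 are genes that growing cells need, such as DAD1 of the kinetochore, NBL1 of the Aurora kinase complex and POP8 and RPR2 of RNase P, and others in constant use, such as ABF2, which packs mitochondrial DNA, and the glutaredoxin GRX4. These 6 were singled out after their values were seen. Of the 142, 10 carried a CLIP site, or 7.04%. That compares with 11 of the 217 genes above 0 and under 1 RPKM, and with 42.1% of genes at 1 RPKM or more. YDR524C-B, a gene of 201 bases on chromosome IV, was listed at 0 and yet had sites in all 5 CLIP libraries, the strongest at 7377 RPM (as deposited) in Puf1. DAD1 had sites in Puf4 and Puf5. Genes listed at 0 were short, with a median length of 336 bases. Whether such rows are true counts of 0 was not tested. LYS2 is one of them too, and in the MATa CLIP strains, which the labels do not give as lys2 mutants, it had sites in Puf4 (2736 RPM) and Puf5 (115 RPM).

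The share of low genes was higher near chromosome ends, although 204 of the low genes lay beyond 100 kb. Within 10 kb of the outermost annotated gene, 50 of 94 protein-coding genes were under 1 RPKM, 53.2% (exact 95% interval 42.6 to 63.6). The share was 24.6% at 10 to 20 kb, 11.5% at 20 to 30 kb and 4.62% beyond 100 kb. The median was higher with distance, from 0.701 RPKM in the outermost 10 kb to 24.2 at 20 to 30 kb and 59.3 beyond 100 kb. Position did not fix the level, since ZRT1, the high-affinity zinc transporter, stood at 3469 RPKM 18.2 kb from the outermost gene of chromosome VII. Chromosome medians ranged narrowly, from 46.8 on chromosome I to 68.7 on chromosome V.

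Yeast keeps many pairs of similar genes, a large part of them from an ancient genome duplication, and their levels ranged from equal to thousands-fold apart. Over 136 pairs the median absolute log2 ratio, computed with a pseudocount of 1 RPKM, was 1.08. Without a pseudocount, the levels were within 1.5-fold in 44 pairs, over 2-fold apart in 73 and over 10-fold apart in 25. The most unequal were enzymes with 1 main copy. PDC1 exceeded PDC6 by 11.68 on the log2 scale (8803 against 1.69 RPKM) and PDC5 by 6.82 (76.9 RPKM). ADH1, the fermentative alcohol dehydrogenase, stood at 1356 against 2.72 for ADH2, which is known to be repressed by glucose. YEF3 exceeded HEF3 (2628 against 6.23), PMA1 exceeded PMA2 (5265 against 17.1) and CDC19 exceeded PYK2 (9761 against 45.8).

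The other pairs at this end include genes known for growth in low oxygen or cold. PET9, the main ADP/ATP carrier of mitochondria, stood at 1571 RPKM against 9.91 for the anaerobic AAC3. TIP1, a cell wall mannoprotein, was at 601 against 3.55 for TIR1. GPM1 exceeded GPM2 by 7.01 on the log2 scale, and GDH1 exceeded GDH3 by 6.05. All these ratios compare 2 levels of the same pooled column and have no replicate error.

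Ribosomal protein pairs were closer together than the others. Their median absolute log2 ratio was 0.74 over 57 pairs, against 1.42 over the 79 other pairs, and 25 of the 57 were within 1.5-fold. The ribosomal pairs are the A and B copies, whereas the others are a chosen list in which PDC1, PET9 and TDH3 occur in more than 1 pair. The difference therefore describes these pairs only and not yeast paralogs in general. RPS1A and RPS1B (2505 and 2583 RPKM), RPL41A and RPL41B, RPL34A and RPL34B (775 and 738), RPS29A and RPS29B (1241 and 1330), RPL20A and RPL20B (1104 and 1018) and RPL6A and RPL6B (1278 and 1403) were among the 10 most equal pairs of all. So were the ribosome-bound chaperones SSB1 and SSB2 (1121 and 1134), the forkhead factors FKH1 and FKH2 (60.0 and 61.1) and the H4 genes HHF1 and HHF2 (1074 and 1177). The maltases MAL12 and MAL32 (0.0879 and 0.142 RPKM) ranked there only through the pseudocount, since their levels were 1.61-fold apart. Yet 4 ribosomal protein pairs were over 10-fold apart in the deposited RPKM. RPL15A stood at 3474 against 76.7 for RPL15B, RPL36B at 947 against 44.0 for RPL36A, RPS22A at 2404 against 135 for RPS22B and RPS14A at 1837 against 146 for RPS14B. Gene lengths, introns included, were 393 bases for RPS22A and 876 for RPS22B, and 541 for RPL36B and 766 for RPL36A. They were 721 for RPS14A and 825 for RPS14B, and 615 for both RPL15 copies. Ratios per coding base were not computed. Where copies are nearly identical, as for SSB1 and SSB2 or RPL41A and RPL41B, equal levels and reads shared between the copies cannot be told apart. For the same reason the split between HXT7 (141 RPKM) and HXT6 (5.22) is uncertain. Whether introns count toward the gene length is not given in the sources used here, which affects ribosomal protein genes most. The lengths used here run from the start to the end of each gene, introns included. With them, the low genes BI4, BI3 and BUD25, which contain introns, fell on whole reads of the 2 libraries at 5712, 3726 and 970 bases. For ribosomal protein genes, with far more reads, this was not tested.

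**Figure D4:**
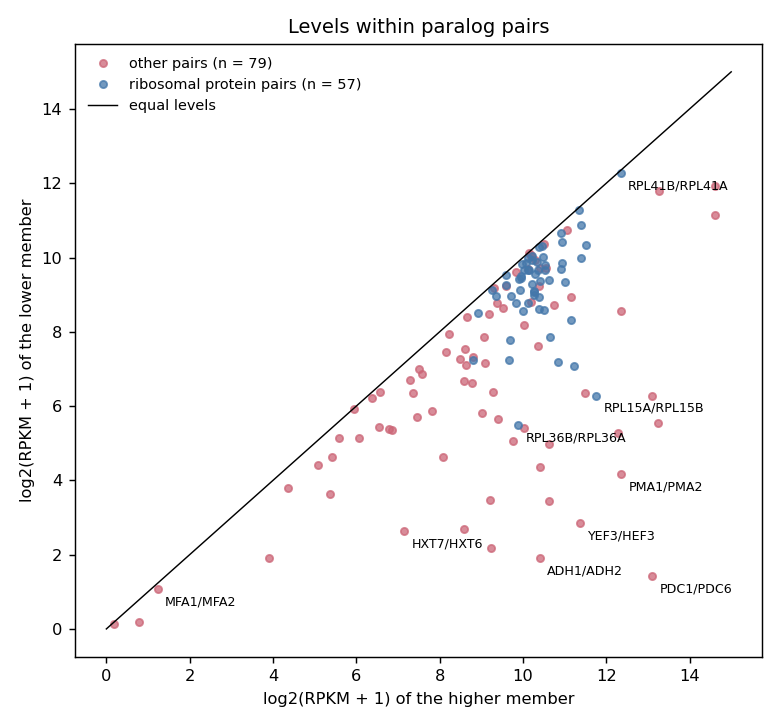
Level as log2(RPKM + 1) of the lower (vertical axis) against the higher (horizontal axis) member of 136 paralog pairs, 1 point per pair, with 57 ribosomal protein pairs in blue, 79 other pairs in red and the line of equal levels. Blue points lie mostly near the line with RPL15A/RPL15B and RPL36B/RPL36A far below it, and the red points reach down to PDC1/PDC6.

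The level of an mRNA was related to the number of CLIP libraries in which it had a site. Of 5521 protein-coding genes at 1 RPKM or more, 2326 had a site in at least 1 of the 5 libraries, 42.1%. The 3195 genes without a site had a median of 43.6 RPKM. With a site in 1 library the median was 76.5 (1424 genes), in 2 it was 133 (525), in 3 it was 343 (234), in 4 it was 1115 (105) and in all 5 it was 1443 (38 genes), 33.1 times that of genes without a site. With sites in 3' UTRs alone the ratio was 14.4 (727 against 50.6 RPKM, 11 genes with sites in all 5). Spearman's rho between level and number of libraries was 0.45 over the 5521 genes, a description across genes, which are not independent. Whether site calling itself depends on the mRNA level was not tested, and the levels come from another strain than the sites.

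By deciles of level (10 bins of equal size), the share of genes with a site went from 12.7% (exact 95% interval 10.0 to 15.7) in the lowest decile, 1.00 to 12.5 RPKM, to 89.9% (87.0 to 92.2) in the highest, from 356 RPKM up. These intervals treat genes as independent, which they are not, and hold no spread between libraries. The step between the ninth and the highest decile, from 62.3% to 89.9%, was larger than any other. The highest decile spans 356 to 24821 RPKM and the ninth only 166 to 355, so the size of this step shows no threshold in level. Sites in at least 3 libraries were found in 42.6% of the highest decile and 8.51% of the ninth. Each library showed the same order of its end deciles. Puf5 had sites in 60.0% of the highest and 7.78% of the lowest decile, Puf4 in 65.2% and 3.98%, Puf2 in 49.8% and 2.35%, Puf1 in 28.8% and 1.99% and Puf6 in 22.5% and 1.99%. The ratio of these shares was smallest for Puf5, at 7.71, and largest for Puf2, at 21.2. Genes with a site had a median of 111 RPKM for Puf5, 161 for Puf4, 165 for Puf6, 232 for Puf2 and 334 for Puf1. Genes bound in 1 library alone were close to one another, with medians between 52.5 for Puf6 and 91.7 for Puf4.

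**Figure D5:**
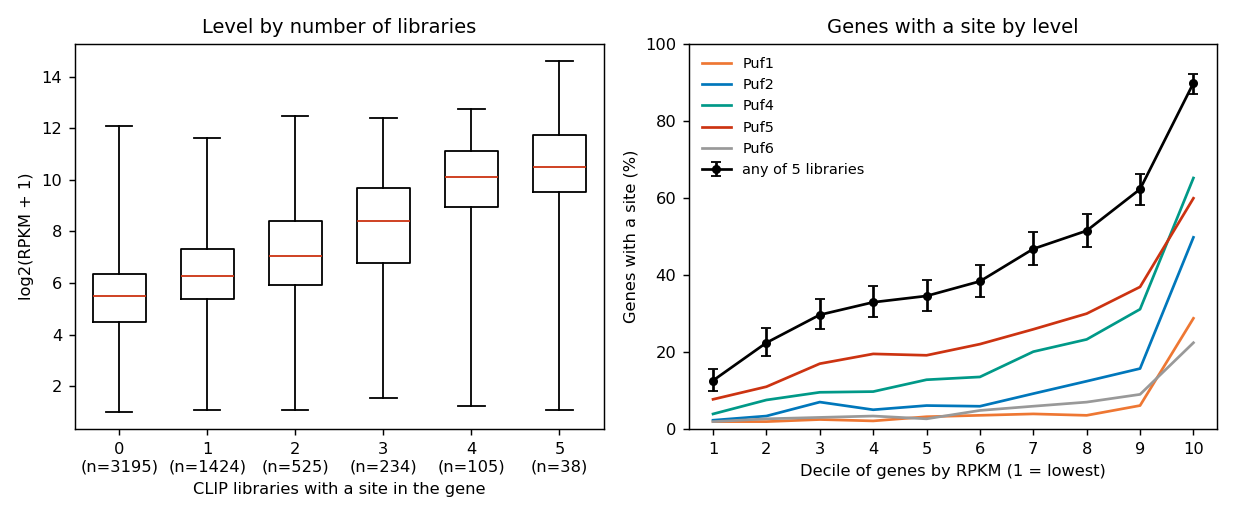
Left, log2(RPKM + 1) of 5521 protein-coding genes by the number of CLIP libraries with a site, as boxes of the quartiles with medians in red and whiskers to the lowest and highest gene. Right, percent of genes with a site in each decile of genes by RPKM, for any of 5 libraries (black, with exact 95% intervals) and for each library. Medians go from 43.6 to 1443 RPKM, and the black line from 12.7% to 89.9% with its steepest part in the last step. The last decile spans 356 to 24821 RPKM.

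Some abundant mRNAs had no site. Of 184 protein-coding genes at 1000 RPKM or more, 2 had none, YKL096C-B at 4360 and CPR1, the cytosolic cyclophilin, at 1478. Only sites that carry the name of a gene were counted for it. Whether sites in CPR1 are listed under another name was not tested. YKL096C-B, of 150 bases, ends at base 259222 of chromosome XI, and the cell wall gene CWP2 (732 RPKM) starts at 259253. Whether the reads of YKL096C-B come from CWP2 transcripts was not tested. The next were MMF1, a mitochondrial protein, at 948, ATP5 of the ATP synthase stalk at 893 and CAM1, an elongation factor subunit, at 826. RPP1A and RPS26A, at 3187 and 2942 RPKM, and ARG1 of arginine synthesis, at 1336, were the highest with a site in 1 library. RPP1A was bound in Puf2 and the other 2 in Puf4. With sites in 2 libraries, RPS31, AHP1 and RPL32 (3394 RPKM) were highest.

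At the other side stood low genes with sites in many libraries. MFA2 had sites in all 5 at 1.11 RPKM, and MFA1 in 4 at 1.35. Both are a-specific, and the CLIP strains were MATa. The strongest MFA2 site had 2322 RPM (Puf1) and the strongest MFA1 site 3086 RPM (Puf4), both in the 3' UTR. In all, 5 of 7 a-specific genes had sites, in 16 of 35 combinations of gene and library, and 4 of 5 alpha-specific genes had sites in 6 of 25. Of all genes at 1 RPKM or more, 42.1% had a site in at least 1 library, and a share of combinations over all genes was not computed. The sites in alpha-specific genes also come from strains labelled MATa, so both lists are too small and mixed for a conclusion. STE2 had sites in Puf2, Puf5 and Puf6, STE6 in Puf1, Puf4 and Puf5 and AGA2 in Puf5. After MFA2, the lowest genes with sites in 5 libraries were HXT7 at 141, the disaggregase HSP104 at 438, the translocation factor EFT2 at 576 and DSE2, a daughter cell wall enzyme, at 628. HXT7 shares most of its sequence with HXT6, which had 3 libraries at 5.22 RPKM. PCK1, a gluconeogenic enzyme, had sites in 3 at 4.39, and SWI1 of a chromatin remodelling complex in 4 at 30.0 RPKM. Of the 359 protein-coding genes under 1 RPKM, 21 had a site, 5.85% against 42.1% of the genes above.

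Of the 7 PUF family genes, 6 had a site, 85.7% against 42.1% of all protein-coding genes at 1 RPKM or more. The share of all genes in the same deciles of level was not computed for this short list. Whether PUF mRNAs carry sites more often than other mRNAs of their level was therefore not tested. PUF3 had 1 site in its 3' UTR, in the Puf5 list at 156 RPM. PUF2 had sites in Puf1 and Puf2, with 641 RPM in the latter, PUF4 in Puf1, Puf4 and Puf5, with 919 RPM in Puf4, and MPT5 in Puf4 and Puf5, with 539 RPM in Puf4. PUF6 had sites in Puf4, Puf5 and Puf6 and JSN1 in Puf5. NOP9 had none at 80.5 RPKM. In each CLIP strain the gene of the captured protein carries the tag, so its own mRNA differs from the one in BY4742.

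The relation was also present within bins of gene length. RPKM and gene length had a Spearman's rho of -0.12, and length and number of libraries 0.086. Within 3 bins of gene length of equal size, rho between level and number of libraries was 0.52 for the shortest, 0.48 for the middle and 0.40 for the longest genes.

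Highly expressed lists have more sites by the relation above, so each list's share of genes with a site is set beside the share of all genes in the same deciles of level. The highest decile spans 356 to 24821 RPKM, so levels within it are not matched. Of the 184 genes at 1000 RPKM or more, only 2 had no site. Whether the differences of lists with many genes in that decile follow level within it was not tested. Of 36 lists with at least 10 genes, 24 were above that share and 12 below. The small ribosomal subunit had sites in 56 of 57 genes, 98.2% against 88.03%, and on average 3.11 libraries against 2.19. Glycolysis genes had 84.0% against 75.4%, and 3 against 1.79 libraries. Transcription factors had sites in 32 of 56 genes, 57.1% against 38.2%, and pheromone-induced genes in 8 of 16, 50.0% against 27.3%. Nuclear genes of respiration lay on the other side, with 22 of 34 genes or 64.7% against 79.1%, and 0.971 against 1.82 libraries. Proteasome genes had 52.9% against 65.5%, mitochondrial ribosome genes 43.8% against 50.5% and haploid-specific genes 25.0% against 47.4%. These are descriptions of 1 library per protein, without a test.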

How the data were processed

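The authors deposited 1 RPKM column for the 2 mRNA-seq samples and, per the file headers, a list of called sites with RPM for each of 5 CLIP libraries. Bowtie 0.12.7 and CASAVA 1.8.2, and the sacCer3 build, are named in the submitters' processing notes. The site caller, its threshold, the read divisor, the gene lengths and the treatment of reads matching several places are not given in the sources used here. Summed over matched genes, RPKM times length came to 118% of the divisor, so the divisors need not equal the number of reads counted. Gene names, lengths and positions are from a RefSeq table of sacCer3. Python 3.11.15, pandas 2.3.3, numpy 2.4.6 and scipy 1.17.1 were used. Recovery of whole reads, with a tolerance of 6e-05 RPKM, was tested on simulated data. A protein-coding gene counted as bound by a protein if at least 1 of its sites carried the gene's name. A level under 1 RPKM was called low, and paralog ratios used a pseudocount of 1. All comparisons are descriptive, with exact Clopper-Pearson intervals at 95%. Intervals of shares of genes treat genes as independent, which they are not, and serve as a scale only. Named genes were drawn by rule from the 20 highest, the highest 3 and the lowest of each list, members of lists of up to 12, the 10 most and 10 least equal paralog pairs and the extremes of each class of library number, and not every gene within the rule is named. The members and lists were chosen with earlier results of these data known. Whether the 2 replicates come from separate cultures is not stated. Alternatives covered the low level, the pseudocount, filters, site classes and gene length.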

Additional observations from a re-analysis of the deposited data

How the results depend on the processing

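The median level was 48.3 RPKM over all rows, 56.0 over protein-coding genes and 53.2 without rows listed at 0, a setting chosen after seeing the data. Rows under the low level numbered 451 at 0.1 RPKM, against 789 at 1, and 1140 at 5. As a share of RPKM times gene length in place of RPKM, cytosolic ribosomal proteins had 11.3% in place of 19.7%, and glycolysis 9.91% in place of 9.38%. The share of genes with a site in the highest decile, 89.9%, was 65.9% with sites in 3' UTRs, 72.6% with the 899 strongest sites of each library, 85.2% without ribosomal protein genes, and 94.6%, 92.9% and 85.9% in the bins of shortest, middle and longest genes. It stayed within its interval with all protein-coding genes, with those at 10 RPKM or more, and, chosen after seeing the data, without a-specific and alpha-specific genes. Class medians went up at every step from 0 to 5 libraries in 8 of 10 settings, the exceptions being sites in 3' UTRs and the shortest genes, where the median with 5 libraries was 14.4 and 22.9 times that without a site, against 33.1. The paralog median was 1.11 with a pseudocount of 0.1. Restricting lists to members at 1 RPKM or more changed 1 of 45 list medians beyond its interval, that of the seripauperins, from 0.130 to 3.47. It also moved the medians of hexose transporters from 5.22 to 39.95, spore formation from 2.00 to 6.71, galactose and maltose use from 4.61 to 8.52, flocculins from 1.54 to 2.76, gluconeogenesis from 4.93 to 7.42 and the 3 deleted markers from 23.6 to 77.6. No replicate could be left out, since both samples share 1 column. No paired analysis was possible because the result comes from no test and both replicates are in 1 column. Paralog pairs were not split by protein identity, since no protein sequences were used here. Genes of few reads are limited by depth, as 1 read per kilobase in the deeper library equals 0.0471 RPKM.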

Other observations

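Among rows without a RefSeq match, YDR154C stood at 2466 RPKM and YLR149C-A at 1064. Of the 61 low genes with at least 5 recovered reads, 2 had an exact interval of the share in the deeper library that did not include the share from the divisors, and 70 low genes had reads in 1 library alone. Between neighbours on both sides at 50 RPKM or more, SDC1 and ABF2, singled out after their values were seen, were listed at 0.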
